A study of Mus musculus with 8 samples.

Results

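The genes described here are the 3 FLRT genes (Flrt1, Flrt2 and Flrt3), 3 genes of the latrophilin family of adhesion receptors (Adgrl1, Adgrl2 and Adgrl4), 2 UNC5 receptor genes (Unc5b and Unc5c), and Macrod1, which lies on the opposite strand around Flrt1 and serves as a check for misassigned reads. They were taken by gene name from a table of 20681 genes, and 9 of 9 were found. The set was chosen by the family of Flrt1, with the normalised counts of the same contrast (libraries labelled knockout against control) already known, so the differences of the 9 genes between the groups are given as a description, without p-values. A filter on low values (at least 10 normalised reads in at least 4 libraries) was passed by 8 of the 9 genes, and Flrt3 did not pass it.

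RNA was measured by poly-A sequencing of whole mouse knee joints, as 4 control libraries and 4 whose labels name a knockout of Loxl2, which encodes a collagen-crosslinking enzyme. Per the labels, the mice of both groups were of the Acan-Cre;Loxl2 fl/fl line, in which Cre is driven by aggrecan (Acan), a gene of cartilage cells, so that deletion is limited to cells that express it. The control joints were called vehicle-treated and their libraries LOXL2wt, while the other group was called LOXL2ko, with no agent named, so a treatment given in place of vehicle would be part of the contrast. DMM is part of each library name; the labels leave it unexplained, and in this field it commonly means destabilisation of the medial meniscus, a surgical joint injury. The age and sex of the mice, the time after injury and whether joints were pooled are not given in the sources used here. Because nothing says that the libraries came from separate animals, the spread between them may be partly technical.

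The libraries held 13991000 to 17411617 reads assigned to genes. Values are normalised read counts, and a difference is the mean log2(value + 1) of the libraries labelled knockout minus that of the controls, with its standard error (SE) from a limma fit over all genes tested. Loxl2 itself was higher on average in the libraries labelled knockout (1210 ± 329, SD, n = 4) than in the controls (519 ± 411, n = 4). The groups overlapped, with control replicate 3 (1135) above knockout replicates 1 (893) and 3 (960). This direction is opposite to the label, though deletion is limited to cells that express Acan and the values are of whole joints. Each group therefore goes by its label here, and no genotype is read from Loxl2. Of the 14949 genes tested, 23.2% passed limma at an adjusted p under 0.05, 1732 of them higher and 1729 lower. That balance depended on the scaling: 2730 of 3501 called genes (78.0%) were higher when libraries were scaled on other genes, that is without the 50 most abundant genes and the markers of muscle, red cells and neutrophils. This scaling moved the median difference of all genes by 0.15. Chondrocyte markers were present in all 8 libraries, with a summed level of 3714 to 11299 in the controls and 9231 to 13061 in the libraries labelled knockout, and Matn3, 1 of the 8, was at 0 in at least 1 library. The skeletal muscle markers summed to 1752260 to 1844980 in the controls and 858139 to 1225210 in the libraries labelled knockout.

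FLRT proteins are membrane proteins with leucine-rich repeats and a fibronectin type III domain outside the cell. They bind latrophilins and UNC5 receptors on neighbouring cells, which can give adhesion or repulsion, and they also interact with FGF receptors. Latrophilins are adhesion G-protein-coupled receptors that in addition bind teneurins and, for some members, neurexins. The UNC5 receptors were first known as receptors of the guidance cue netrin, and Unc5b is also a gene of blood vessel endothelium. Adgrl4, also called ELTD1, carries the latrophilin family name but is known mainly as an endothelial receptor, and Macrod1 encodes a mitochondrial enzyme that removes ADP-ribose and is abundant in skeletal muscle.

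Whether reads of one FLRT gene could be counted for another was examined in the coding sequences of GENCODE M21, which is on the same build as mm10. The coding sequences hold 2022 bases in Flrt1, 1980 in Flrt2 and 1947 in Flrt3, without the stop codon. Aligned bases were identical at 54.7% between Flrt1 and Flrt2, 59.5% between Flrt1 and Flrt3 and 53.1% between Flrt2 and Flrt3, and the longest run shared by any pair was 18 bases (Flrt1 and Flrt2). Between the transcripts, 0 stretches of 50 bases were shared. The stretch below is shown because it is the gap-free window of 90 bases in which the 3 coding sequences are most alike; 54 of its bases are the same in all 3 genes, and the capitals mark the 36 that are not. It spans coding bases 196 to 285 of Flrt1, 142 to 231 of Flrt2 and 127 to 216 of Flrt3, counted from 1 at the start codon.
Flrt1: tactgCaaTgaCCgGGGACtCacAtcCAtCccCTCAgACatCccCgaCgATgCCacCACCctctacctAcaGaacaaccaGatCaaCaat
Flrt2: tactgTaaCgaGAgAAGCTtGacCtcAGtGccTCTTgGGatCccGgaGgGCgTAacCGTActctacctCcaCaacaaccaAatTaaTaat
Flrt3: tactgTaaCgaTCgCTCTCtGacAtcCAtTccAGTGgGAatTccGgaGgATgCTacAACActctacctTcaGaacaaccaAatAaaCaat
Even at their closest, the genes differed at many positions spread along the window.

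Flrt1 (chromosome 19, 7092001 to 7105729, minus strand of mm10) has a single annotated transcript of 2 exons. It lies wholly inside Macrod1 (chromosome 19, 7056810 to 7198057, plus strand), in the long intron between the third and the fourth exon of that gene, and the 2 genes share 0 exonic bases. Mature Macrod1 RNA therefore holds no Flrt1 exon, whereas unspliced Macrod1 RNA would, and the use of strand in counting is not given in the sources used here. Flrt3 (chromosome 2, 140650914 to 140671469) has the same arrangement inside Macrod2, again with 0 shared exonic bases. Adgrl1 (chromosome 8, 83900105 to 83941954) shares 12.9% of its exonic bases with Gm10644 on the opposite strand, whose values were at most 12 in the 8 libraries, against at least 576 for Adgrl1.

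The promoter windows of Flrt2 and Unc5b, from RefSeq on GRCm38.p6 (250 bases before to 50 after the start), are shown as examples. Both genes have an entry, and their values, given below, were higher on average in the libraries labelled knockout. Flrt3 and Unc5c, which had few reads, were also higher on average and have an entry, but their windows are not shown. Of the 9 genes, 8 had an entry there, and Flrt1 was the one without. The window of Flrt2 is chr12:95691976-95692275 on the plus strand and that of Unc5b chr10:60831532-60831831 on the minus strand, both written 5′ to 3′ along the gene with capitals at GC boxes (GGGCGG, either strand).
Flrt2: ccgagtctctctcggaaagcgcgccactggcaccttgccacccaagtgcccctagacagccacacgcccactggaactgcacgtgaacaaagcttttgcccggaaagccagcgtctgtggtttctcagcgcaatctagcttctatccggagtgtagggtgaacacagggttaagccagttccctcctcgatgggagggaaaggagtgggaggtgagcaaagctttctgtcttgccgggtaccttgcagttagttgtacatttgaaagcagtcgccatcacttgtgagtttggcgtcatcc
Unc5b: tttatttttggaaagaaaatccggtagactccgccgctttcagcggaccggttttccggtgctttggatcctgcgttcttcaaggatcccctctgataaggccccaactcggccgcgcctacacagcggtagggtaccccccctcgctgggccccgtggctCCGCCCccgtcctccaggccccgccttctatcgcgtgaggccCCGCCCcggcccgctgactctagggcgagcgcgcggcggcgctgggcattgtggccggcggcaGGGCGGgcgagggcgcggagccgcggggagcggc
The windows differ in composition, with 55.3% G or C and 14 CG steps in Flrt2 against 69.7% and 36 in Unc5b. The GC box occurred 3 times in the window of Unc5b and 0 times in that of Flrt2, and 35.7% of 32851 such windows held at least 1. The TATA box, searched as TATAAA on both strands, was in neither window and in 13.6% of all windows. The AP-1 motif, searched as TGANTCA, was likewise in neither window and in 7.81% of all. Nor did either window hold CCAAT, which 37.4% of all windows held.

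Flrt1 had 127, 44.4, 24.3 and 40.5 normalised reads in the control libraries, in order of replicate number, and 956, 854, 662 and 473 in those labelled knockout. All later values of the 4 libraries of a group are in the same order. The groups were far apart: the lowest library labelled knockout lay well above control replicate 1, which was itself the highest control. The means were 58.9 ± 45.9 and 736 ± 214 (SD, n = 4 per group), and the log2 difference was 3.84 (SE 0.43). Raw reads behind these values were 26 to 117 in the controls and 537 to 998 in the libraries labelled knockout. Leaving out single libraries moved the difference between 3.52 and 4.30, the latter without control replicate 1.

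Flrt2 (chromosome 12, 95692226 to 95785215), which in embryos is known from mesenchyme and heart, had 86.5, 92.9, 134 and 152 normalised reads in the controls and 476, 316, 249 and 255 in the libraries labelled knockout. These groups did not overlap either, but the gap was smaller than for Flrt1. The means were 116 ± 31.8 and 324 ± 106, and the log2 difference was 1.46 (SE 0.25). Flrt3, an adhesion gene best known in embryos and in neurons, was near the limit of detection, with 2, 4, 3 and 4 reads in the controls and 17, 6, 8 and 12 in the libraries labelled knockout. Its normalised values were 2.16 to 4.38 and 5.13 to 17.0 and did not overlap, with a log2 difference of 1.31 that understates a change at such low counts.

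The make-up of the FLRT reads also differed between the groups. Of the reads of the 3 FLRT genes together, Flrt1 held 58.8% in control replicate 1 (Wilson 95% interval 51.9 to 65.4%, counting error only) and 31.4%, 15.1% and 20.6% in control replicates 2 to 4. It held 66.0%, 72.6%, 72.0% and 64.0% in knockout replicates 1 to 4, where the intervals lay between 60.7 and 74.9%. Control replicate 1 was thus the 1 control in which most FLRT reads came from Flrt1, and its interval overlapped those of knockout replicates 1 and 4 but not those of 2 and 3; it rested on 199 FLRT reads, against 839 to 1453 in the libraries labelled knockout. Per exon length, the level of Flrt1 was 0.24 to 1.92 times that of Flrt2 in the controls and 2.43 to 3.55 times in the libraries labelled knockout.

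The receptors of the latrophilin family showed no such separation. Adgrl1, the gene of latrophilin 1, had 1019, 633, 728 and 828 normalised reads in the controls and 926, 831, 576 and 842 in the libraries labelled knockout, a log2 difference of -0.01 (SE 0.18). Adgrl2 (chromosome 3, 148815583 to 148990555), the gene of latrophilin 2, had 225, 213, 241 and 189 in the controls and 155, 183, 311 and 181 in the others, a difference of -0.11 (SE 0.20). Its highest value was in knockout replicate 3, and the remaining 3 libraries of that group lay below every control. Adgrl4 (chromosome 3, 151437887 to 151545086) had 416, 410, 527 and 425 in the controls and 326, 496, 513 and 392 in the others, a difference of -0.06 (SE 0.16). For all 3 genes the groups overlapped and the difference was smaller than its SE. The direction of these differences turned under some settings: scaled on the other genes, Adgrl1, Adgrl2 and Adgrl4 differed by 0.14, 0.04 and 0.09.

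Unc5b (chromosome 10, 60762593 to 60831581) had 432, 183, 251 and 249 normalised reads in the controls and 412, 391, 447 and 453 in the libraries labelled knockout. Apart from control replicate 1, which lay among them, the controls were below every library labelled knockout. The means were 279 ± 107 and 426 ± 29.6, and the log2 difference was 0.68 (SE 0.22), or 0.91 without control replicate 1. Unc5c (chromosome 3, 141465216 to 141834924), another netrin receptor gene, was close to the floor, with 18, 7, 5 and 0 reads in the controls and 14, 9, 14 and 19 in the others. Its groups overlapped, and its difference of 1.33 (SE 0.81) ranged from 0.51 without control replicate 4 to 2.18 with a pseudocount of 0.1 in place of 1, so it was not resolved at this depth.

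Macrod1 had 2935, 4530, 3225 and 3990 normalised reads in the controls and 2721, 2164, 4117 and 2675 in the libraries labelled knockout. It did not follow Flrt1: its mean was lower in the libraries labelled knockout, with a log2 difference of -0.35 (SE 0.20), and the groups overlapped through knockout replicate 3. Without that library the difference was -0.53. The skeletal muscle markers were lower as well, 10 of 10 with a median difference of -0.62, and per 1000 normalised reads of these markers Macrod1 had 2.03 ± 0.37 reads in the controls and 2.67 ± 0.70 in the libraries labelled knockout, with overlapping groups. For every 100 Macrod1 reads the controls had 4.31, 0.98, 0.75 and 1.02 Flrt1 reads, and the libraries labelled knockout 35.2, 39.4, 16.1 and 17.7. Macrod2, looked at after these values were seen, had 169 ± 61.4 and 135 ± 17.1 normalised reads and so was not higher where Flrt3 was. Of 22 other tested genes within 250 kb of Flrt1, 2 passed limma as higher (Fkbp2 and Cox8a) and 2 as lower (Esrra and Trpt1). Over all genes tested 11.6% passed as higher and 11.6% as lower, and nothing is read from the count near Flrt1. The largest difference of these neighbours was 0.89 (Rcor2, SE 0.62), well under that of Flrt1.

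**Figure D1:**
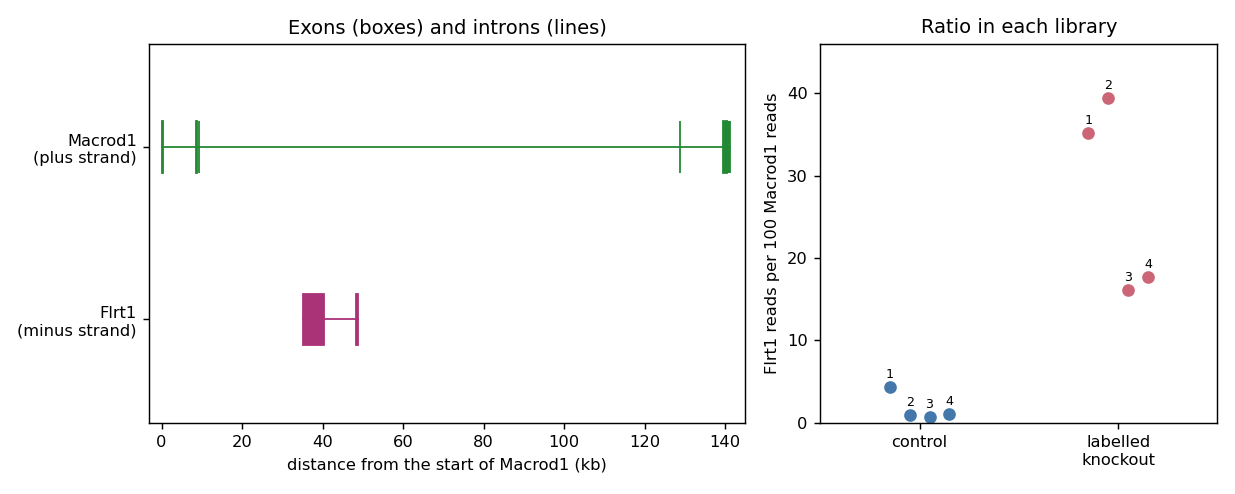
Left, exons of Flrt1 and Macrod1 as boxes against the distance from the start of Macrod1 in kb; right, Flrt1 reads per 100 Macrod1 reads in each library, by group and replicate number. Flrt1 sits inside an intron with no shared exonic base, and the ratio lies between 0.75 and 4.31 in controls and between 16.1 and 39.4 in libraries labelled knockout.

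Counted over the whole-table fit, 3 of the 8 genes tested (Flrt1, Flrt2 and Unc5b) passed limma, all 3 as higher, where 11.6% of all genes passed as higher and 11.6% as lower. The groups did not overlap for 2 of the 8 as higher (11.7% of all genes) and for 0 as lower (13.4%). Since the members were chosen with this contrast in view, nothing is read from these counts. The pass of Unc5b was lost on leaving out any 1 library except control replicate 1, and also without a filter, with TMM scaling, with quantile normalisation, with the replicate number as a block and with edgeR; Macrod1 passed as lower without knockout replicate 3. The median difference of the 8 genes was 0.33, beside 0.00 for all genes tested.

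To set different genes side by side, levels were taken per kb of exon. The length held all annotated exons of a gene, used in the joint or not, so the order of genes is approximate. On this scale Macrod1 was by far the most abundant, with 2989 ± 591 normalised reads per kb in the controls. Adgrl4 (97.0 ± 12.1) and Adgrl1 (93.4 ± 19.2) followed in the controls with overlapping ranges, then Unc5b (44.5 ± 17.1). Adgrl2 (15.3 ± 1.53), Flrt2 (15.1 ± 4.12) and Flrt1 (10.04 ± 7.82) formed a lower set in which neighbours overlapped, and Flrt3 (0.69 ± 0.21) and Unc5c (0.41 ± 0.43) came last and overlapped. In the libraries labelled knockout Flrt1 stood next after Macrod1 at 125 ± 36.4 reads per kb, overlapping Adgrl4 (94.2 ± 19.3), which overlapped Adgrl1 (92.5 ± 17.6), which in turn overlapped Unc5b (68.0 ± 4.72). Flrt2 (42.0 ± 13.7) lay below Unc5b there with ranges that almost touched (highest Flrt2 library 61.6, lowest Unc5b library 62.5), and above Adgrl2 (14.6 ± 4.95) without overlap. Among tested genes with a known length, the mean level of Flrt1 stood at percentile 17.5 in the controls and 73.0 in the libraries labelled knockout, that of Flrt2 at 24.4 and 44.8, and that of Adgrl1 at 65.9 and 65.4.

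**Figure D2:**
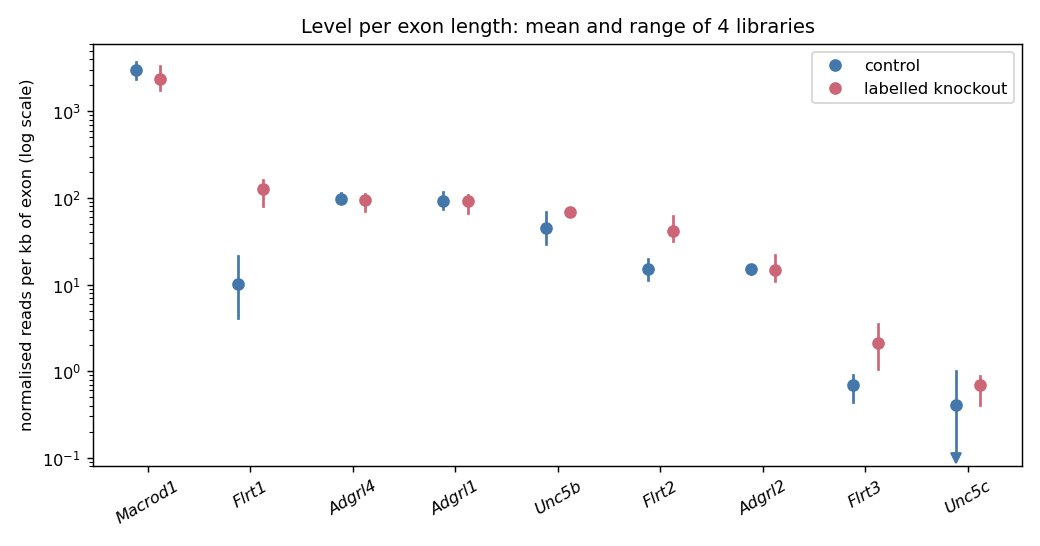
Normalised reads per kb of exon (log scale) for the 9 genes, ordered by their mean in the libraries labelled knockout; points are group means and lines the range of 4 libraries, with a triangle at the bottom where a library is at 0. The mean of Flrt1 is 10.04 reads per kb in controls, below Adgrl2, and 125 in the others, above Adgrl4, with overlapping ranges in both cases; the means of the receptors keep one order.

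The libraries varied in their tissue content. Control replicate 1, highest of the controls for Flrt1, Unc5b, Unc5c and Adgrl1, also had a summed osteoclast marker level of 13767, against 1842 to 2488 in the other controls and 10088 to 38544 in the libraries labelled knockout. Its osteoblast markers summed to 7248, against 1350 to 2943 in the other controls and 5955 to 12804 in the others. It was also the highest control for the summed fibroblast (120456), chondrocyte (11299), neutrophil (5520) and adipocyte (4026) markers. In knockout replicates 1 to 4 the osteoclast sum was 38544, 10088, 17342 and 28597, beside Flrt1 values of 956, 854, 662 and 473. Replicate 1 was thus highest for both, while replicate 2 had the lowest sum and replicate 4 the lowest Flrt1 value. Unc5b had 412, 391, 447 and 453 normalised reads in these libraries. A link of either gene to that sum was not tested. Knockout replicate 3, highest of its group for Adgrl2 and Adgrl4, had the highest summed endothelial level of all libraries at 9981. Per 100 normalised reads of the 10 endothelial markers there were 5.62 to 6.78 reads of Adgrl4 in the controls and 5.14 to 6.85 in the libraries labelled knockout. The part of tissue content in the differences was not tested, and in whole joints more cells of a type and more RNA per cell cannot be told apart.

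Marker lists of 13 cell types were set beside these genes. Over all genes tested, 11.6% were called higher and 11.6% lower, and the counts per list are a description only. Fibroblast markers were called higher for 9 of 10 genes, with sums of 39278 to 120456 in the controls and 169242 to 272959 in the libraries labelled knockout, and macrophage markers for 8 of 8 (2817 to 6668, and 9880 to 14084). Osteoclast markers were called higher for 6 of 7 and osteoblast markers for 4 of 8. Skeletal muscle markers were called lower for 3 of 10, with all 10 lower. Endothelial markers were called for 0 of 10 (6267 to 7920, and 4915 to 9981). Among the other lists, 1 of 8 mural, 1 of 8 chondrocyte and 1 of 7 Schwann cell and neuron markers were called higher and 1 of 2 keratinocyte markers lower, and 0 of 6 adipocyte, 0 of 6 erythroid and 0 of 7 neutrophil markers passed. Of the listed markers with a row in the table, 0 were at 0 in all libraries, and Matn3 was the 1 gene at 0 in any; Nefl, Krt5, Krt14 and Krt1 had no row.

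The other genes of the FLRT, latrophilin and UNC5 pathways, and 2 related families, were taken as lists of 76 genes that are not members. Of these, 39 passed the filter and 14 passed limma, 12 as higher and 2 as lower, which is 35.9% against 23.2% of all genes tested. Since these lists were chosen with earlier results of these data known, the excess is a description only, and its size depended on single libraries. Without knockout replicate 4 the share was 12.8%, against 11.7% of all genes, and without knockout replicate 2 it was 15.4%, against 16.0%. Leaving out any other library kept the share of the lists above that of all genes. It was, for example, 17.9% against 14.7% without control replicate 4 and 35.9% against 25.7% without knockout replicate 3. The median difference of the 39 genes was 0.37, beside 0.00 for all genes. The number passing moved from 5 without knockout replicate 4 to 16 when libraries were scaled on other genes.

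Of the receptor genes of the same families, Unc5a was abundant, with 380, 512, 222 and 457 normalised reads in the controls and 351, 213, 428 and 349 in the libraries labelled knockout. The groups overlapped and the log2 difference was -0.20 (SE 0.28, limma adjusted p = 0.627). Adgrl3, the gene of latrophilin 3, and Unc5d did not pass the filter: Adgrl3 had 2.80 to 5.48 normalised reads in the controls and 5.98 to 30.8 in the others, and Unc5d was at 0 in all controls and at most 6.52 in the others. Teneurins and neurexins, the other ligands of latrophilins, gave 0 of 4 tested genes past the threshold, beside 23.2% of all genes. Tenm3, the most abundant of them, differed by 0.21 (SE 0.15, limma adjusted p = 0.343), and Tenm4 by 1.57 (SE 0.54, limma adjusted p = 0.0595).

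Among the netrins and their co-receptors 1 of 6 genes passed, as higher, beside 11.6% of all genes tested. Draxin, which encodes a secreted guidance protein that binds netrin receptors, rose from 11.9, 9.08, 0 and 2.19 normalised reads in the controls to 139, 28.2, 46.8 and 51.9, without overlap, a log2 difference of 3.65 (SE 0.80, limma adjusted p = 0.0131). It rested on at most 11 reads in a control, and its difference ranged from 2.67 to 4.63 over the settings tried. Of the controls only replicate 1 held at least 10 normalised reads, so Draxin passed the filter through the libraries labelled knockout. Its p-value is therefore a description only. Without a filter the limma adjusted p was 0.0123. Of the netrin genes tested, neither was called, with differences of 0.52 (SE 0.28, limma adjusted p = 0.200) for Ntn1 and 0.67 (SE 0.24, limma adjusted p = 0.0709) for Ntn4. The netrin receptor gene Neo1 differed by 0.28 (SE 0.11, limma adjusted p = 0.0997).

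Of 5 further partners of FLRT and UNC5 proteins, 3 passed limma as higher, beside 11.6% of all genes tested. The differences of all 5 were above 0. Fgfr2, a receptor of fibroblast growth factors, had 224, 38.4, 162 and 124 normalised reads in the controls and 1191, 563, 622 and 718 in the libraries labelled knockout, without overlap, a log2 difference of 2.68 (SE 0.47, limma adjusted p = 0.00674). Fgfr1, another such receptor and the one best known as a partner of FLRT proteins, with 2156 ± 282 and 2792 ± 342 normalised reads, rose by 0.37 (SE 0.12, limma adjusted p = 0.0453). Robo1, a Slit receptor that can bind FLRT3, with 49.0 ± 35.3 and 144 ± 66.1, rose by 1.59 (SE 0.48, limma adjusted p = 0.0402), with control replicate 3 above knockout replicate 3. The calls of Fgfr1 and Robo1 were both lost on leaving out any 1 library of either group except replicate 3 (limma adjusted p up to 0.121 and 0.111), that of Fgfr1 also without a filter, with edgeR and with the block (adjusted p = 0.0581), and that of Robo1 with quantile normalisation and the block (0.0970), whereas Fgfr2 passed under all 18 alternatives. Rnd1, the gene of a small GTPase that binds FLRT3, and Gpc3, a glypican gene, did not pass (limma adjusted p = 0.234 and 0.400).

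Genes of other leucine-rich repeat adhesion proteins, the wider family of FLRT, went both ways. Of 11 tested, 4 passed limma as higher and 2 as lower, beside 11.6% of all genes in each direction. By sign alone, 6 were higher and 5 lower. Slitrk6 rose by 2.21 (SE 0.51, limma adjusted p = 0.0159) from 9.67 ± 5.25 to 49.4 ± 25.4 normalised reads. Of the controls only replicates 1 and 3 held at least 10, so this gene too passed the filter through the libraries labelled knockout. Without a filter its limma adjusted p was 0.0168. Islr, known as a marker of mesenchymal stromal cells, rose by 1.23 (SE 0.36, limma adjusted p = 0.0355), Lingo1 by 0.99 (SE 0.31, limma adjusted p = 0.0474) and Lrrn2 by 0.92 (SE 0.29, limma adjusted p = 0.0448). Lingo3 fell by 0.97 (SE 0.26, limma adjusted p = 0.0248) and Amigo1 by 0.41 (SE 0.13, limma adjusted p = 0.0409), the latter not past the threshold when scaled on other genes (-0.26), with quantile normalisation or with the replicate block. Each of these calls was lost when single libraries were left out: Slitrk6 without knockout replicate 4 (adjusted p = 0.0525, and 0.000206 to 0.0525 over its alternatives), Lingo3 without knockout replicate 1, 2 or 4 or control replicate 2 or 3, and Islr without knockout replicate 2 or 4 or control replicate 1, 2 or 4. Leaving out any 1 library lost Lrrn2, except control replicate 1 or 3. The same held for Lingo1 except knockout replicate 1, and for Amigo1 except control replicate 3. With the replicate block Islr, Lrrn2, Lingo1 and Amigo1 did not pass (limma adjusted p = 0.0609, 0.0956, 0.0652 and 0.0936). Lrrn2 and Lingo1 were also lost without a filter and with quantile normalisation, and Islr and Lrrn2 with edgeR. Reads of Islr and Islr2 share 181 exonic bases on the same strand, so their counts are less certain.

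Adhesion G-protein-coupled receptors outside the latrophilins gave 4 of 12 genes past the threshold, all higher, beside 11.6% of all genes as higher. Adgre1, the F4/80 gene of macrophages and also on the macrophage list above, had 86.8 ± 31.0 normalised reads in the controls and 237 ± 59.5 in the others and so rose by 1.49 (SE 0.29, limma adjusted p = 0.00937). Adgra2, a co-receptor of Wnt7 signalling in vessels, rose by 0.68 (SE 0.15, limma adjusted p = 0.0128), and Adgre5, the CD97 gene of leukocytes, by 0.46 (SE 0.10, limma adjusted p = 0.0142); 23.8% of the exonic bases of Adgre5 overlap Ddx39 on the opposite strand. Adgrb2 rose by 1.62 (SE 0.43, limma adjusted p = 0.0249), a call lost with quantile normalisation and without knockout replicate 1, 2 or 4 or control replicate 4. The endothelial receptor gene Adgrf5, with 1652 ± 181 and 1374 ± 514 normalised reads, was not called (-0.32, SE 0.20, limma adjusted p = 0.272).

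**Figure D3:**
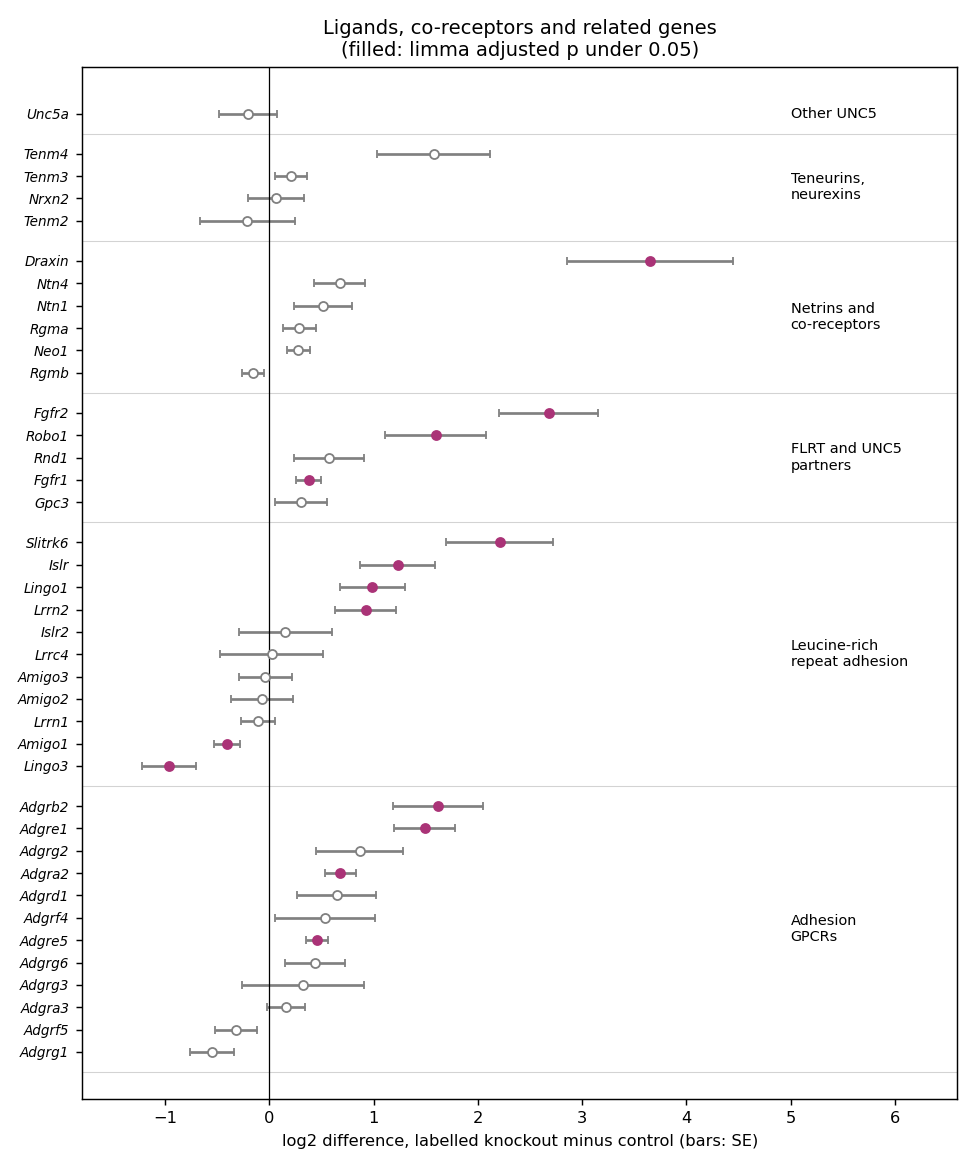
Log2 difference, libraries labelled knockout minus control (horizontal axis, bars: SE), of the 39 tested genes on the 6 lists of ligands, co-receptors and related families (vertical axis); filled points passed limma at an adjusted p under 0.05. Filled points are 12 to the right and 2 to the left of 0, with Draxin (3.65) and Fgfr2 (2.68) farthest to the right. Draxin and Slitrk6 passed the filter on low values through the libraries labelled knockout.

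The genes whose levels over the 8 libraries were most like those of each FLRT gene were ranked by Pearson correlation of log2 values among 11643 tested genes with a mean of at least 50 (11644 for Flrt3). Since the groups were apart for the FLRT genes, such a correlation mostly follows the group, and it is given only to describe the ranking. For Flrt1 the first 5 were Rpa3 (0.98), Traf5 (0.98), Lrfn4 (0.98), Frmd8 (0.98) and Mgat4a (0.97). Correlations of the deviations from the group means were 0.75 to 0.90 for these 5, the highest for Lrfn4. Because the ranking used the same 8 libraries, it favours genes with high values of this kind, so no link is read from them. Their differences were far smaller than that of Flrt1, from 0.34 for Rpa3 to 0.77 for Traf5. For Flrt2 the first 4 were Pnp, Gxylt1, Tpst2 and Olfml1 (all 0.97), with differences of 0.27 to 1.28, and for Flrt3 Atraid (0.98), Tmem219 (0.97), Rpl17-ps3 (0.97), Rasal2 (0.96) and Acap2 (0.96). None of the genes named here was on more than 1 of these rankings. Within groups the correlation of the deviations of Flrt1 and Flrt2 was -0.19 over the 8 libraries, too few to decide whether they move together.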

How the data were processed

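The deposited table gives 1 value per gene and library, a normalised signal, whose steps are those of a read count divided by a factor of the library. HISAT2, featureCounts and mm10 are named in the submitters' processing notes, and per the series' design text the authors aligned to mm10, counted with featureCounts and normalised with DESeq2; versions, annotation, strand setting and filter are not given in the sources used here. All values (100%) were whole multiples, within 0.01, of the smallest value of their library; in control replicate 2 and knockout replicate 1 that step is so near 1 that it carries little information.

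Values were tested as log2(value + 1) with limma 3.58.1 (group term, intensity trend) over 14949 genes with at least 10 in at least 4 libraries, and adjusted by Benjamini-Hochberg. edgeR 4.0.16 and DESeq2 1.42.0 on the recovered reads, other scalings, filters and pseudocounts (0.1 and 5), a replicate block and leaving out each library were alternatives. The fits were tested on simulated data. Exon lengths, places and coding sequences came from GENCODE M21. The members, the marker lists and the pathway lists were chosen with earlier results of these data known. Named were the members, at most 6 called genes per pathway list of smallest p, the other genes of the 3 families, and the 5 genes most like each FLRT gene (for Flrt2 4, as 1 is not reported here); Macrod2, Gm10644, the neighbours of Flrt1 and uncalled pathway genes were named after their values were seen.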

Additional observations from a re-analysis of the deposited data

Results flagged for a closer look

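In 6 of 52 gene and group combinations examined, 1 library lay farther from the other 3 than the 95% critical value of Dixon's test allows, which chance alone gives in about 1 in 20. Adgrl4 in control replicate 3 was at 527 normalised reads, against 410 to 425 in the other controls. In that same library Robo1 was at 102, against 28.1 to 34.3, and Islr at 1566, against 529 to 656. In knockout replicate 4, Fgfr1 was at 3302, against 2573 to 2650, and Adgre5 at 831, against 662 to 686. Adgrl3 was at 30.8 in knockout replicate 2, against 5.98 to 8.80. Control replicate 3 was also the control with the highest Loxl2, at 1135 against 282 to 349.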

How the results depend on the processing

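The differences of Flrt1 (3.52 to 4.30), Flrt2 (1.26 to 1.61) and Unc5b (0.50 to 0.91) stayed above 0 in all 18 alternatives, and the values of all 9 genes moved by less than 1 SD between replicates. The number of members called was 2 or 3 throughout. The number of genes called over the whole table was 1751 to 3841 when single libraries were left out (1751 without knockout replicate 4, 1887 without control replicate 2, 2194 without control replicate 4). Pathway list genes called were 9 with a filter at 50, of them 7 higher, and 9 with quantile normalisation, of them 1 lower. Scaling on other genes gave 16, of them 15 higher and 1 lower. Without single libraries they were 5 to 14, with 5 to 11 higher and 0 to 3 lower; without knockout replicate 4 they were 5. The difference of Unc5a was -0.4542 to 0.0004 without single libraries and changed sign without knockout replicate 2. The causes of these changes were not tested. The labels do not say whether the replicate numbers pair the libraries. Same-numbered libraries correlated in their deviations at 0.21, -0.12, -0.23 and -0.06, and only those with number 1 correlated best with their own number. The values thus gave little sign of pairing, but such correlations cannot decide it. With the replicate block 2018 genes were called, with 9 pathway genes, 1 of them lower. Depth limits Flrt3, Unc5c, Unc5d and Adgrl3, which had at most 36 reads in any library.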
